A study of Mus musculus with 2 samples.

Results

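Peaks at 4 loci of the mouse genome with some of the highest pileups were examined in DLX2 CUT&Tag data. The loci were *Rn18s-rs5*, *Sfi1*, *Lars2* and *Aida*, and they were chosen by the pileup or the fold of their peaks, so those values are given here as a description and without a test. A peak was counted with a locus when it lay inside the RefSeq extent of the gene in GRCm38 or within 10 kb of it. This gave 15 of 28061 peaks in replicate 1 and 18 of 62093 peaks in replicate 2.

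CUT&Tag uses an antibody to bring a transposase to a protein on chromatin, so that fragments accumulate where the protein sits. Both libraries came from the maxillary process of wildtype C57BL/6 embryos at E12.5, with the antibody Dlx2 (Abcam, #ab272902). They form 1 group of 2 replicates, numbered in record order; whether embryos were pooled is not given in the sources used here. There was no control library among the data analysed, and no other genotype. The labels speak of sonicated nuclei, a step that tagging by a transposase, the account in the methods, does not need.

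The members differ in kind. *Rn18s-rs5* is annotated as a pseudogene related to 18S ribosomal RNA, the RNA of the small ribosomal subunit. Ribosomal RNA genes stand in long tandem arrays, of which a genome assembly holds few copies, and reads of copies that an assembly lacks align to the copies that it holds. *Sfi1* encodes a centrin-binding protein of the centrosome. *Lars2* encodes the leucyl-tRNA synthetase of mitochondria, and *Aida* encodes a protein that interacts with axin. DLX2 itself is a homeodomain transcription factor of the craniofacial neural crest, and factors of its family bind DNA with a TAATT core. The number of genomic copies of each sequence was not measured here, so its part in the values below was not tested.

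For every peak, the fragments piled up at the summit and the background expected there were worked out from the deposited fold and −log10 p. Backgrounds are given as fragments or as multiples of the floor, the smallest background of a library, which stood at 0.387 fragments for replicate 1 and was 2.84 times that, 1.101 fragments, for replicate 2. A typical peak of the whole list was weak, with a median of 6 fragments in replicate 1 and 9 in replicate 2. Median peak length was 145 bp and 193 bp, respectively.

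The 4 loci fell into a pair of shapes. *Rn18s-rs5* and *Sfi1* carried runs of several peaks with many fragments, a high local background and a lower fold. *Lars2* and *Aida* each carried 1 strong peak, of 325 to 435 bp, with a high fold and a local background of 1.95 to 3.69 times the floor. Of the 10 peaks with the most fragments in each library, *Rn18s-rs5* held 4 in replicate 1 and 3 in replicate 2, *Sfi1* held 3 in each, *Aida* held 1 in each and *Lars2* held 0. The remaining ones were peaks of the unplaced contig JH584304, which were 1 in replicate 1 and 2 in replicate 2, and 1 peak in each library on chromosome 15, 11.7 kb from the pseudogene *Gm5960*.

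**Figure D1:**
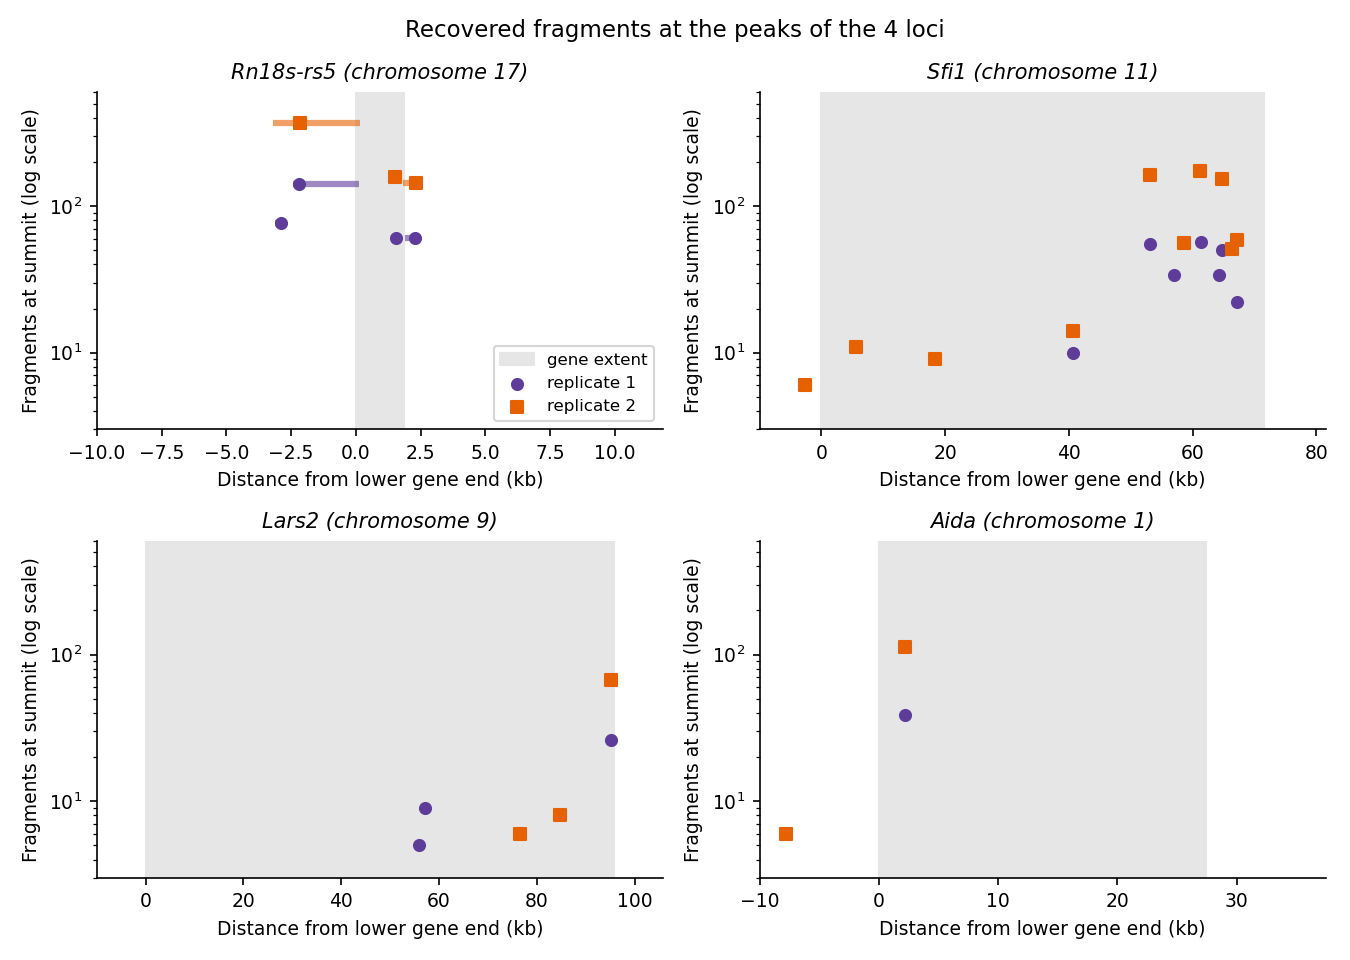
Fragments at the summit (log scale) against distance from the lower-coordinate end of each gene in kb, for the peaks of *Rn18s-rs5*, *Sfi1*, *Lars2* and *Aida*; circles are replicate 1, squares are replicate 2, horizontal lines span the peak and grey marks the gene. The strong *Sfi1* peaks sit together in the upper part of the gene, and *Lars2* and *Aida* have 1 strong summit each, at 26 and 39 fragments in replicate 1 and 67 and 113 in replicate 2.

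*Rn18s-rs5* lies on chromosome 17 at 39846354 to 39848202 in GRCm38, a length of 1849 bp. The longest peak of both lists was found here. It ran from 39843922 to 39846486 in replicate 1, a length of 2565 bp, and from 39843159 to 39846517 in replicate 2, a length of 3359 bp. It also ranked first in both libraries by fragments and by −log10 p, with 141 fragments in replicate 1 and 369 in replicate 2. By fold the same peak stood lower in the lists, at 6.66 in replicate 1, rank 2000, and 5.71 in replicate 2, rank 6420.

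Fold divides the fragments by the local background, and that background was high. At this summit the background was 20.3 fragments in replicate 1 and 63.8 in replicate 2, or 52.5 and 58.0 times the floor of each library. Across the replicates this was 55.2 ± 3.86 times the floor (SD, n = 2). The highest background of either list belonged to the small peak inside the gene that ends at position 39847914, with 20.4 fragments in replicate 1 and 63.9 in replicate 2.

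Most of the peak length lay beside the annotated gene and not within it. Peaks covered 17.3% of the bases of the gene in replicate 1 and 25.5% in replicate 2. The middle of the gene held a stretch without a peak, which was 1241 bp long in replicate 1 and 1115 bp long in replicate 2. The peak inside the gene had 61 fragments and a fold of 2.90 in replicate 1, and 158 fragments and a fold of 2.45 in replicate 2. Its upper edge was at the same base, 39847914, in both libraries.

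A further peak lay at the upper gene end, within the overlapping lncRNA gene *AY036118*. In replicate 1 it began 66 bp past the end of *Rn18s-rs5*, and in replicate 2 it covered that end. It held 61 fragments in replicate 1 and 143 in replicate 2, at folds of 3.21 and 2.46. These folds were near the lowest of the lists, at ranks 27982 of 28061 and 62084 of 62093. Folds this low are listed only on a background above the floor, so the ranks go with the high background. In replicate 1 alone a separate peak of 77 fragments lay from 39843241 to 39843711; in replicate 2 the long peak covered those bases. All peaks of the locus fell within 5.48 kb in replicate 1 and 5.58 kb in replicate 2, and they covered 67.1% and 75.3% of that span.

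The surroundings of *Rn18s-rs5* were empty of listed peaks. From 10 to 500 kb beyond the gene on both sides there were 0 peaks in each replicate, and the nearest peak past the 10 kb limit was 1344 kb away in replicate 1, with 8 fragments, and 571 kb away in replicate 2, also with 8 fragments. The protein-coding neighbours *Esp15* and *Esp38*, genes of secreted exocrine gland peptides, had 0 peaks in either list. The share of all genes of such a length without a peak was not worked out. Whether reads can be placed well around this locus was not examined either.

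*Sfi1* lies on chromosome 11 at 3131850 to 3203347, a length of 71.5 kb. It held 7 peaks in replicate 1 and 10 in replicate 2, and 6 of them in each library formed a cluster in the upper part of the gene. The cluster spanned 3184300 to 3199223 in replicate 1 and 3184220 to 3199249 in replicate 2, or 14.9 and 15.0 kb. Unlike the peaks at *Rn18s-rs5*, which covered most of their span, those of the cluster covered 20.1% of the span in replicate 1 and 25.1% in replicate 2.

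The strong summits recurred at the same places. The first, 1185 bp long in replicate 1 and 1383 bp in replicate 2, had 55 and 164 fragments, with summits 2 bp apart. The second, had 57 and 173 fragments with summits 29 bp apart. The next stretch, around the ribosomal protein pseudogene *Fau-ps2* at 3196390 to 3196727, was listed as separate peaks of 34 and 50 fragments in replicate 1 and as 1 peak of 154 fragments in replicate 2. The last had 22 and 59 fragments, with summits 10 bp apart.

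Some peaks of the cluster had no counterpart. In replicate 1 a peak of 34 fragments lay from 3188738 to 3188855, where replicate 2 had none. Replicate 2 had a peak of 56 fragments from 3190347 to 3190466, whose fold of 2.08 was the lowest in its whole list, and a peak of 51 fragments from 3198194 to 3198370 with a fold of 2.21. These peaks had more fragments than the medians of 6 and 9, on a background of 10.2 fragments in replicate 1 and of 26.4 and 22.5 in replicate 2. Their low folds go with that background, as at *Rn18s-rs5*.

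Background in the *Sfi1* cluster ran from 14.0 to 26.5 times the floor in replicate 1 and from 17.0 to 29.7 times in replicate 2. Outside the cluster, the peaks of the locus had few fragments and a background near the floor. A peak at 3172507 to 3172662, present in both libraries, had 10 fragments in replicate 1 and 14 in replicate 2, with the summit on the same base. Its folds, 7.53 and 7.14, ranked 1045 and 1679 and were above those of most peaks in the lists. Its background was 1.19 times the floor in replicate 1 and at the floor in replicate 2. The other 3 peaks of replicate 2 had 6, 9 and 11 fragments and no counterpart in replicate 1. The nearest peaks past the 10 kb limit lay 148 kb away in replicate 1 and 63.0 kb away in replicate 2, with 6 and 8 fragments.

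In the flanks of *Sfi1*, from 10 to 500 kb away, 8 peaks were listed in replicate 1 and 15 in replicate 2. They held 4 to 6 fragments in replicate 1 and 7 to 12 in replicate 2, and no background there exceeded 1.89 times the floor in replicate 1 or 2.28 times in replicate 2. *Drg1*, which encodes a GTP-binding protein and is the nearest protein-coding gene on the upper side, had 0 peaks in replicate 1 and 1 of 8 fragments in replicate 2.

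**Figure D2:**
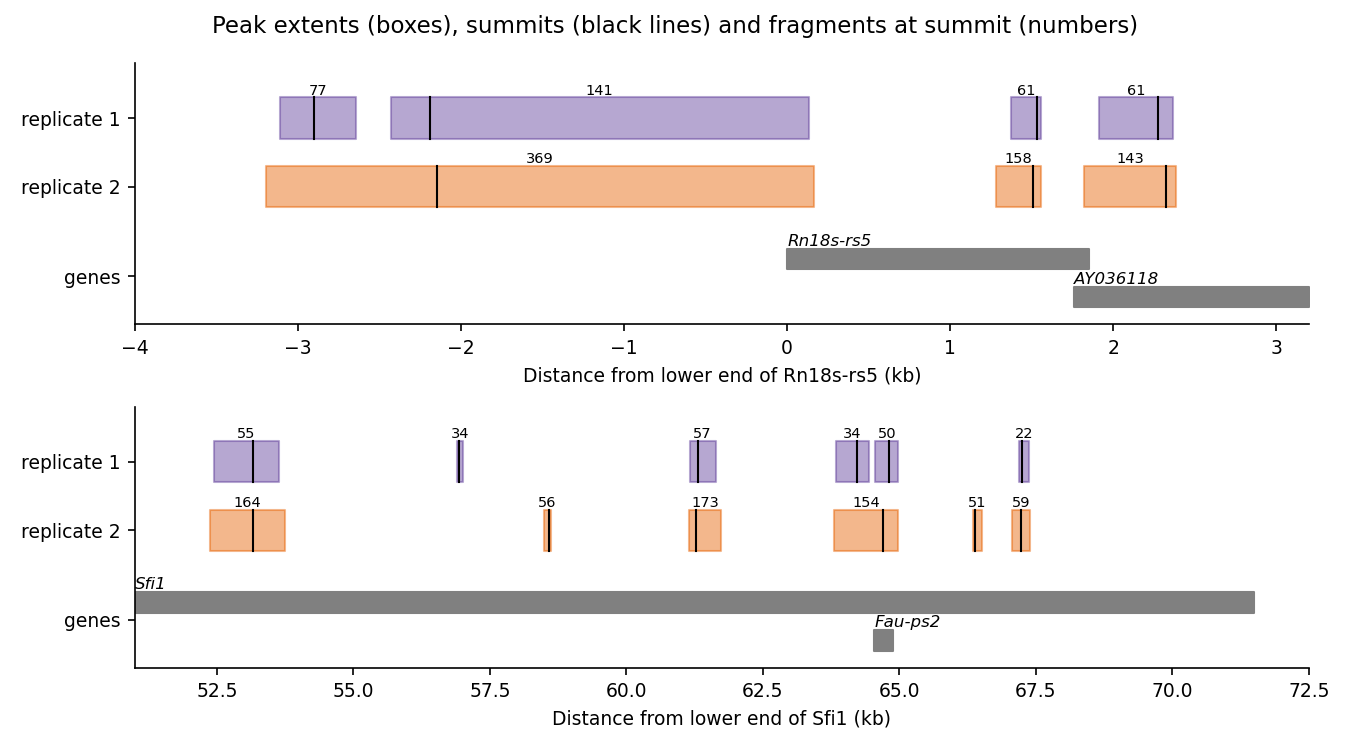
Extents of the peaks (boxes), summits (black lines) and fragments at the summit (numbers) around *Rn18s-rs5* (top) and in the upper part of *Sfi1* (bottom), against distance from the lower-coordinate end of the gene in kb, with annotated genes in grey. At *Rn18s-rs5* the longest peak, of 141 fragments in replicate 1 and 369 in replicate 2, lies below the gene, and both replicates have a gap in the middle of the gene.

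*Lars2* lies on chromosome 9 at 123366927 to 123462675, a length of 95.7 kb, and *Aida* on chromosome 1 at 183297060 to 183324501, a length of 27.4 kb. RefSeq start windows of GRCm38.p6, 250 bases before to 50 bases after an annotated start, were held for these 2 of the 4 members. They are shown because they mark where signal at the start site would lie. The capitals mark a match to TAATTA or TAATTG on either strand, which differ in the last base.

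Aida start window, chr1:183296810-183297109, plus strand: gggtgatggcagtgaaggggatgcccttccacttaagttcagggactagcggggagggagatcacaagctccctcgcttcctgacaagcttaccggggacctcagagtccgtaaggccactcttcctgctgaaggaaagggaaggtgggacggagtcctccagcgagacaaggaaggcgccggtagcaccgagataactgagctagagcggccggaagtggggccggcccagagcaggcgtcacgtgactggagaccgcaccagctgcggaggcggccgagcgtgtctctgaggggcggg

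Lars2 start window, chr9:123366677-123366976, plus strand: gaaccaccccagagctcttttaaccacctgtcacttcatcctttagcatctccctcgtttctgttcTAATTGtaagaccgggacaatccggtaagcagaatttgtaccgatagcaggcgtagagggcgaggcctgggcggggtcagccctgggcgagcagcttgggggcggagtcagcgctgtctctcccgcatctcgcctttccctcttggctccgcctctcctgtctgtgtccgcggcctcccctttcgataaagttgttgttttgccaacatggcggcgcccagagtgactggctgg

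The *Aida* window held 0 matches and the *Lars2* window held 1, which began 184 bases before the start site. Of all 32851 windows of this length, 5.29% held TAATTA, 8.00% held TAATTG and 12.4% held either. A match is a description of letters and not of a bound site. Neither window contained a peak in either replicate, and in both genes the strong peak lay elsewhere.

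In *Lars2* the strong peak lay 95.1 kb past the start, close to the other end of the gene. It ran from 123461849 to 123462173 in replicate 1, a length of 325 bp, and from 123461802 to 123462173 in replicate 2, a length of 372 bp. The summit was at position 123461999 and the upper edge at 123462173 in both libraries. It had 26 fragments in replicate 1 and 67 in replicate 2, with folds of 15.0 and 21.6, which ranked 5 and 3 by fold. By fragments it ranked 35 and 28.

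The other peaks of *Lars2* had fewer fragments and did not recur. Replicate 1 had peaks of 5 and 9 fragments, the latter with a fold of 6.80 that ranked 1820, and replicate 2 had peaks of 6 and 8 fragments, at different positions within the gene. Past the 10 kb limit the nearest peaks lay at 28.3 kb in replicate 1, with 4 fragments, and at 53.2 kb in replicate 2, with 7. Background at the strong summit was 0.801 fragments in replicate 1 and 2.15 in replicate 2, or 2.01 ± 0.0847 times the floor (SD, n = 2). It ranked 2458 and 4579 among the backgrounds of all peaks. *Limd1*, the next protein-coding gene above and a LIM domain protein gene, had 1 peak of 5 fragments in replicate 1 and 0 in replicate 2. *Tmem158*, the next one below, had 0 in replicate 1 and 1 of 7 fragments in replicate 2.

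In *Aida* the strong peak lay near the start of the gene. Its summit was 2194 bp from the lower gene end in replicate 1 and 2197 bp in replicate 2, 3 bp apart. It ran from 183299161 to 183299566 in replicate 1, a length of 406 bp, and from 183299149 to 183299583 in replicate 2, a length of 435 bp. It had 39 fragments in replicate 1 and 113 in replicate 2 and the second highest fold of both lists, at 17.7 and 22.5. The gene *Brox*, which overlaps the start of *Aida*, ends at 183297298 and did not reach this peak.

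Background at the *Aida* summit was 1.26 fragments in replicate 1 and 4.07 in replicate 2, or 3.48 ± 0.305 times the floor (SD, n = 2). It ranked 200 and 188 among the backgrounds of all peaks, far below those of *Rn18s-rs5* and *Sfi1* in size but above most of the list. The only other peak of the locus was 1 of 6 fragments in replicate 2, 7.61 kb outside the gene and the closest to the 10 kb limit from inside. Just past that limit, replicate 2 had a peak of 7 fragments at 11.2 kb; in replicate 1 the nearest was at 40.1 kb, with 6 fragments. The protein-coding neighbours had few fragments as well. *Mia3*, which encodes a cargo receptor for collagen export, had 1 peak of 6 fragments in replicate 1 and 3 of at most 10 in replicate 2. *Fam177b* had 0 peaks in replicate 1 and 2 of at most 11 fragments in replicate 2.

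Flanking peaks around both genes had few fragments. In the 10 to 500 kb around *Lars2*, 14 peaks of 4 to 10 fragments were listed in replicate 1 and 38 of 7 to 14 in replicate 2. Around *Aida* there were 14 peaks of 4 to 7 fragments in replicate 1 and 44 of 6 to 15 in replicate 2. Per 100 kb this was 1.43 flanking peaks for either gene in replicate 1, and 3.88 for *Lars2* and 4.49 for *Aida* in replicate 2. The loci themselves had 2.59 peaks per 100 kb at *Lars2* in each replicate and 2.11 and 4.22 at *Aida*, so in replicate 2 peaks were not sparser in the flanks than at the genes. None of these flanking peaks had a background over 2.29 times the floor in replicate 1 or 2.07 times in replicate 2.

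The split in background was then counted over the lists. A background over 5 times the floor was found in 10 of the 15 member peaks of replicate 1 and 9 of the 18 of replicate 2, against 0.321% of all peaks in replicate 1 (90 peaks) and 0.176% in replicate 2 (109 peaks). Since pileup was used to choose the loci, nothing is read from these counts alone. All of the members so counted belonged to *Rn18s-rs5* or *Sfi1*; *Lars2* and *Aida* had 0. All of them also passed 10 times the floor, a level passed by 40 peaks in replicate 1 and 44 in replicate 2. Of these, 27 and 35 lay on unplaced contigs, and 3 and 0 lay elsewhere on the assembled chromosomes.

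**Figure D3:**
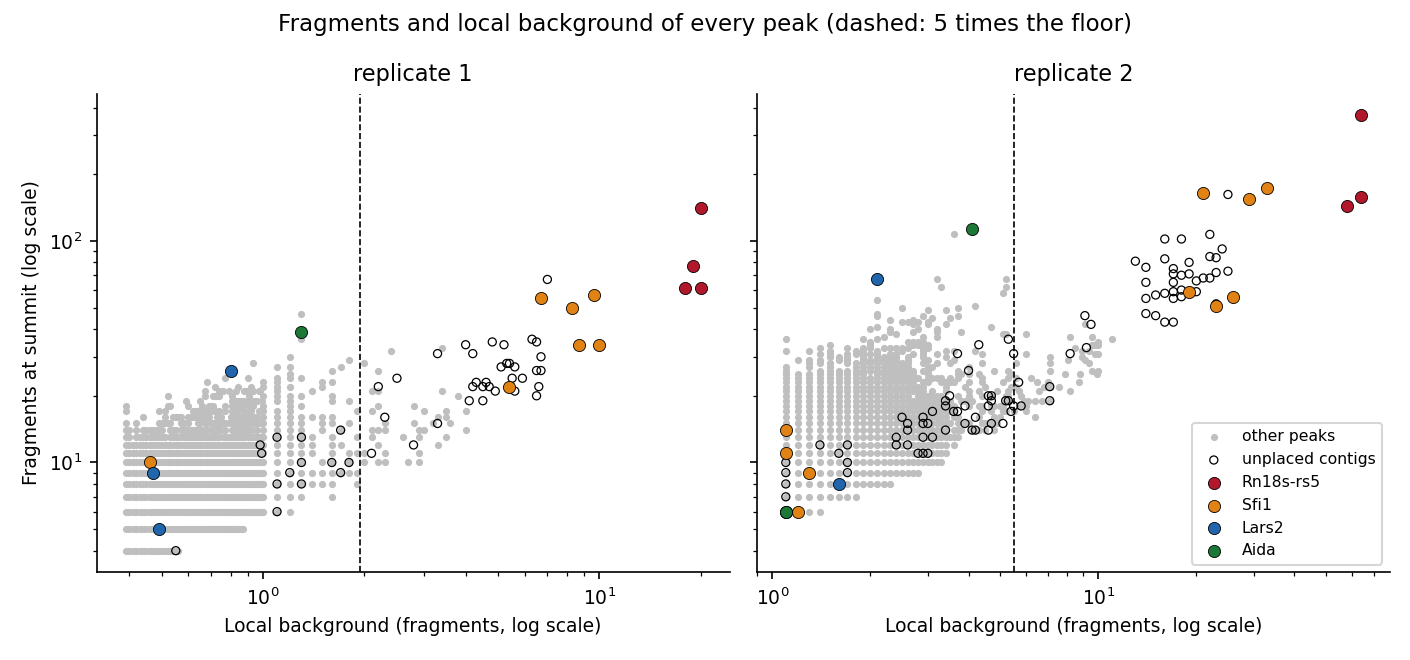
Fragments at the summit against local background, both in fragments on log scales, for every peak of replicate 1 (left) and replicate 2 (right); colours mark the 4 loci, open circles the unplaced contigs, and the dashed line 5 times the floor of the library. *Rn18s-rs5* sits at the far right, at a background of 18.3 to 20.4 in replicate 1 and 57.7 to 63.9 in replicate 2, whereas the strong *Lars2* and *Aida* peaks lie left of the dashed line.

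Counts by fold and by length sorted the loci in opposite ways. A fold of 10 or more was reached by 2 member peaks in each library, the strong peaks of *Lars2* and *Aida*, against 0.577% of all peaks in replicate 1 and 0.319% in replicate 2. A length of 1000 bp or more was reached by 2 member peaks in replicate 1 and 3 in replicate 2, against 0.0249% and 0.126% of all peaks. These lay at *Rn18s-rs5*, 1 in each library, and at *Sfi1*, 1 in replicate 1 and 2 in replicate 2. Since the loci were chosen by pileup or fold, nothing is read from these counts alone.

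The deposited fold adds 1 fragment to both its terms, which lowers it most where the background is small. Dividing the fragments by the background directly, the strong *Lars2* peak stood at 32.4 in replicate 1 and 31.2 in replicate 2, or 31.8 ± 0.877 (SD, n = 2), and the *Aida* peak at 30.9 and 27.8, or 29.3 ± 2.19. The deposited folds of the same peaks were 18.3 ± 4.68 and 20.1 ± 3.41. For the peaks with the most fragments at *Rn18s-rs5* and *Sfi1* the plain ratio was 6.36 ± 0.816 and 5.61 ± 0.451, close to their deposited folds of 6.19 ± 0.672 and 5.31 ± 0.212. Over all peaks the median plain ratio was 11.5 in replicate 1 and 6.36 in replicate 2. The strong peaks of *Lars2* and *Aida* thus differed less between the replicates on this ratio than by fold, and the single peak with the most fragments at *Rn18s-rs5* and at *Sfi1* lay below the median of its library in both replicates. Another *Sfi1* peak, of 164 fragments in replicate 2, lay above the median there, at 7.81. A peak on a low background needs a higher ratio to be listed at all. A place below the median therefore goes with a high background and is not a separate trait.

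Agreement of the replicates was examined next. Of the member peaks, 12 of 15 in replicate 1 and 10 of 18 in replicate 2 met a peak of the other library, against 38.9% and 17.2% of all peaks. The members were chosen for strong peaks, so the counts are a description. At *Rn18s-rs5* all peaks were met, 4 in replicate 1 and 3 in replicate 2; at *Sfi1* 6 of 7 and 5 of 10 were; at *Lars2* 1 of 3 in each; and at *Aida* 1 of 1 and 1 of 2.

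These formed 12 segments covered in both libraries, 4 at *Rn18s-rs5*, 6 at *Sfi1* and 1 each at *Lars2* and *Aida*. The fragments of replicate 2 exceeded those of replicate 1 by a median ratio of 2.79 over the 12 segments, near the ratio of the floors of 2.84. It was 2.58 at *Lars2* and 2.90 at *Aida*. Over all 10921 shared segments the median ratio was 1.67, and over the 95 other segments with 20 or more fragments in replicate 1 it was 1.85. The ratios of these 95 ran from 0.714 to 4.43, so ratios like those of the loci were also found outside them. Among the 95 was a segment of 67 fragments in replicate 1 and 162 in replicate 2. A weak segment also needs enough fragments to be listed in both libraries, which affects its ratio. The highest ratios of the loci, 4.79 at *Rn18s-rs5* and 4.53 at *Sfi1*, came where 1 long peak of replicate 2 met a shorter second peak of replicate 1. The lowest, 1.40, was that of the *Sfi1* peak outside the cluster.

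**Figure D4:**
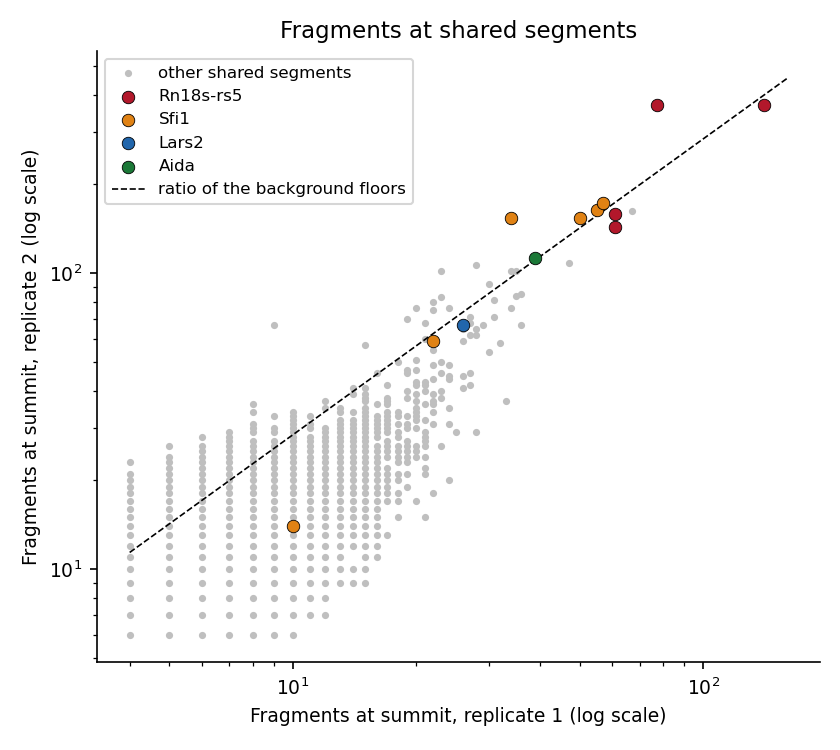
Fragments at the summit in replicate 1 and replicate 2 (log scales) for every segment covered in both; colours mark the 4 loci and the dashed line is the ratio of the background floors, 2.84. Most segments of the 4 loci lie close to the dashed line, as do some strong segments elsewhere, whereas the median ratio of all segments is 1.67.

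Summits agreed closely at some of the loci and not at others. The distance between the summits of the replicates was 0 bp at *Lars2* and 3 bp at *Aida*. At *Sfi1* it was 0, 2, 10, 29, 110 and 472 bp, and at *Rn18s-rs5* it was 24, 45, 48 and 754 bp. The 2 longest distances again came from long peaks of replicate 2 that met a second peak of replicate 1. Over the 12 segments the median was 26.5 bp, against 63 bp over all shared segments, with quartiles of 26 and 123 bp. A distance of 5 bp or less was found in 4 of the 12, against 6.41% of all shared segments and 12.6% of the 95 others with 20 or more fragments in replicate 1. The members were chosen for high pileups, so these counts are given as a description.

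An edge at the same base in both libraries was found in 2 of the 12 segments, against 5.48% of all shared segments and 13.7% of the 95 others. These were the upper edge of the *Lars2* peak and the upper edge of the peak inside *Rn18s-rs5*.

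**Figure D5:**
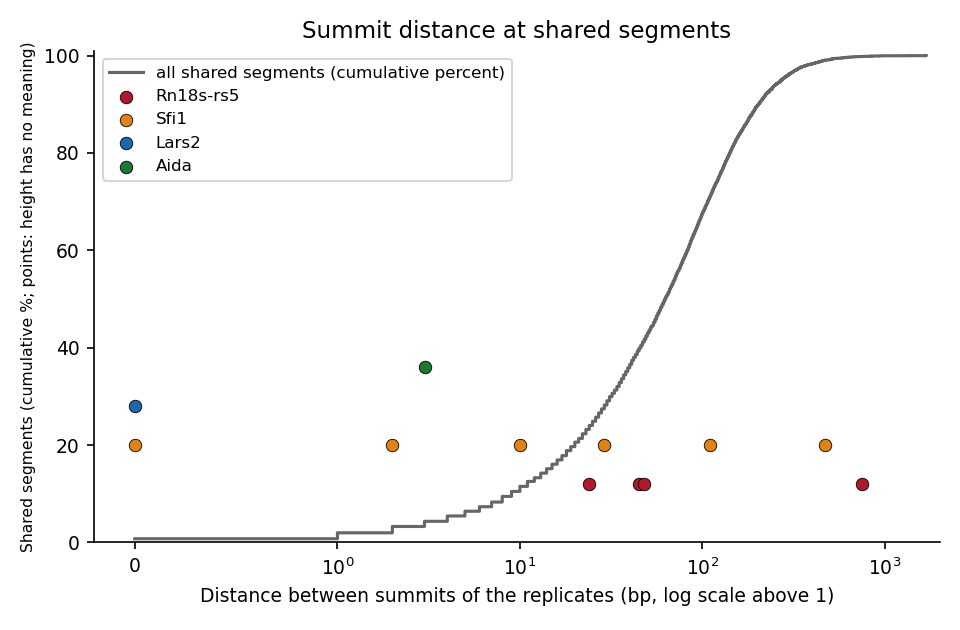
Cumulative percent of all 10921 shared segments by the distance between the summits of the replicates in bp (log scale above 1), with the segments of the 4 loci as points whose height has no meaning. *Lars2* and *Aida* lie at 0 and 3 bp, *Rn18s-rs5* between 24 and 754 bp, and the median of all segments is 63 bp.

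The annotated 5S ribosomal RNA genes and *Rn4.5s*, the list of other multi-copy RNA genes, gave no values of this size. Of the 71 genes on this list with a position on the assembled chromosomes, 70 of them of the 5S kind and 1 being *Rn4.5s*, RefSeq lists 53 as rRNA genes and 18 as pseudogenes. A peak lay within 10 kb of 13 in replicate 1 and 17 in replicate 2, and 0 had a peak over the gene itself. Genes that stand close together on chromosome 8 shared peaks, so these are counts of genes and the distinct peaks were fewer. The share of all genes with a peak that near was not worked out. The strongest of these peaks had 9 fragments in replicate 1 and 16 in replicate 2, and no background there was over 1.80 times the floor in replicate 1 or 2.15 times in replicate 2. The genes *Rn45s*, *Rn18s*, *Rn28s1* and *Rn5-8s* had no usable position in the annotation and were not analysed here. The mitochondrial chromosome had 0 peaks in both lists. Whether its reads were kept for peak calling is not given in the sources used here, so nothing is read from this.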

How the data were processed

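The data were 2 peak lists, 1 per library, that the authors made from their reads on the mouse build mm10 (GRCm38). The study reports other, smaller numbers of peaks for its 2 replicates. The ranks and shares given here are therefore not those of its peak sets. The methods of the study name trimming with Trim Galore and alignment with bowtie2, whereas the submitters' processing notes name Trim Galore 0.4.5, Bowtie 1.1.2 and MACS2 2.2.7; settings and any filter on duplicates or repeated sequence are not given in the sources used here. Such a filter would change the values at repeated sequence. The deposited score is the whole part of 10 times −log10 q. The deposited fold is a ratio at the summit, and the deposited −log10 p and −log10 q are those of the peak caller; both lists stop at a q of 0.1. Read totals are not in the lists, so depth is known only through the background floor.

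Fragments and background were recovered by trying each whole number up to 600 against the deposited fold (fragments plus 1 over background plus 1) and the Poisson upper tail, with a tolerance of 0.001; a solution was found for 100% of the peaks of each library. For 265 replicate 1 peaks a second number also lay within the tolerance and the closer was kept; none of them was a member. Recovery was tested on data simulated with the same formulas, so that test covers the inversion and not the meaning of the values. The simulated backgrounds did not extend to the floor of replicate 1 or to the highest values of *Rn18s-rs5* in replicate 2. The values are an inference from the deposited ones. Without a control library the caller takes the background from the same library around the peak, so a wide stretch of fragments enters its own background.

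Extents are those of RefSeq GRCm38.p6, without strand, exons or introns; genes listed before position 3000000 were left out. No genome sequence was used here, so copies of the member sequences were not counted. Segments shared 1 bp or more. The members and lists were chosen with earlier results of these data known. The genes named were the 4 members and the genes at the 10 peaks with the most fragments in each library. The ribosomal RNA genes and the nearest protein-coding gene on each side, where listed, were also named. *AY036118*, *Fau-ps2* and *Brox* were added after the values were seen. No test was run: there is 1 group, and nothing says whether the libraries came from separate litters. Alternatives were other flanks, filters on q or fold, a 50% overlap, other multiples of the floor and each replicate alone. Computation used scipy 1.17.1, pandas 2.3.3 and numpy 2.4.6 under Python 3.11.15, and plots used matplotlib 3.10.9.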

Additional observations from a re-analysis of the deposited data

How the results depend on the processing

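Of 81 alternatives to 19 values, 70 stayed within the spread of the replicates or within 1.5 times the count, and 11 did not. Each replicate alone lies within that spread by construction, so the 70 overstate how stable the values are. Fragments divided by the floor were also counted among the 70, though they are in another unit. At a fold of at least 5 the mean number of peaks fell to 1 at *Rn18s-rs5*, 4.5 at *Sfi1* and 1.5 at *Lars2*, and the shared segments of *Rn18s-rs5* to 1; at a −log10 q of at least 5 the means were 5 at *Sfi1* and 1.5 at *Lars2*. These counts follow from the filters themselves. Without a flank *Rn18s-rs5* had 2 shared segments, and with 50 kb *Aida* had 4.5 peaks and 2 shared segments, by construction. The share of all peaks over the limit of background was 0.770% at 3 times the floor and 0.107% at 10 times, against a mean of 0.248% at 5 times, again by construction; that of the members stayed at 58.3% at 10 times and was 64.4% at 3 times. Each replicate alone kept the order of the 4 loci by most fragments, *Rn18s-rs5*, *Sfi1*, *Aida* and *Lars2*. The planned count of copies in the genome was not run, since no genome sequence was used here. With 2 libraries and no control, DLX2 occupancy and background common to both libraries cannot be told apart at any of the loci.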

Other observations

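Peaks with a background over 5 times the floor also lay outside the 4 loci, on unplaced contigs (34 of 90 in replicate 1 and 45 of 109 in replicate 2) and elsewhere on the chromosomes (46 and 55). The contig JH584304 alone had 25 peaks in replicate 1, of 12 to 67 fragments, and 35 in replicate 2, of 31 to 162 fragments, and all of them were over 5 times the floor. Its median background was 4.64 fragments in replicate 1 and 17.5 in replicate 2, below the lowest value at *Rn18s-rs5*, 18.3 and 57.7. The highest backgrounds of the contig, 7.03 and 25.4 fragments, lay within the range of the *Sfi1* cluster. That range was 5.41 to 10.2 fragments in replicate 1 and 18.7 to 32.7 in replicate 2.

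On the chromosomes some of these peaks stood in runs and others stood alone. The 2 runs given here were chosen after their values were seen. Counting only peaks over 5 times the floor, a run on chromosome 1 had 10 peaks in 52.5 kb in replicate 1, in *Ugt1a10*, *Mroh2a* and *Hjurp*, and 17 peaks in 73.3 kb in replicate 2, in *Mroh2a* and *Hjurp* and, for the last peak, 5.3 kb from *Trpm8*. *Hjurp* encodes a chaperone of centromeric histone. The peaks held 10 to 16 fragments in replicate 1 and 21 to 38 in replicate 2, where the peak of 38 was the one nearest to *Trpm8*. On chromosome 4 a run from 3050116 to 3086325, nearest to the pseudogene *Vmn1r-ps2* of a vomeronasal receptor, had 16 peaks in replicate 1 and 17 in replicate 2, with backgrounds of 7.23 to 10.4 and 6.15 to 9.57 times the floor. The peaks of both runs had fewer fragments than the 3 highest peaks of *Sfi1*, which had 50 to 57 fragments in replicate 1 and 154 to 173 in replicate 2. The other peaks of the *Sfi1* cluster had 22 to 34 fragments in replicate 1 and 51 to 59 in replicate 2. The run on chromosome 4 reached 33 and 42 fragments, so in replicate 1 it overlapped these.

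The strongest peak by fold lay on chromosome 15, at 75086736 to 75086955 in replicate 1. It had 47 fragments on a background of 1.33 in replicate 1 and 108 on 3.60 in replicate 2, and folds of 20.6 and 23.7.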
